A study of Mus musculus with 24 samples.

Results

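The genes described here are the 10 mouse genes of MHC class II antigen presentation that the arrays measure: the chains H2-Aa, H2-Ab1 and H2-Eb1, the invariant chain Cd74, the peptide editors H2-DMa, H2-DMb1, H2-DMb2, H2-Oa and H2-Ob, and the transactivator Ciita. They were chosen by name. In the scanner files, 17 of 41174 probes carried one of these names, and all 10 genes were among the 24491 genes tested. The brightest probe stood for each gene. The 10 probes chosen were well above background in the sample channel on all 24 arrays, except those of H2-Ob and Ciita, which were so on 23, and none was saturated.

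Marrow RNA was hybridised to Agilent two-colour arrays, and all mice were C57BL/6j females 6 weeks of age, with each sample in Cy3 (green) and a common reference, pooled from oil-treated wild-type (WT) marrow, in Cy5 (red). Mice received BP, DMBA, TCDD or olive oil into the peritoneum, and the labels give 50 mg/kg for all of them: BP stands for benzo(a)pyrene, DMBA for 7,12-dimethylbenz(a)anthracene, and TCDD for the dioxin 2,3,7,8-tetrachlorodibenzo-p-dioxin. The groups were mice lacking both Cyp1a1 and Cyp1b1 (double-null) 12 h after BP (2 arrays) and with oil (1 array), Cyp1b1-null mice 12 h after DMBA (2) and with oil (2), Cyp1a1-null mice 12 h after BP (3) and with oil (3), and WT mice 6 h after BP (2), 12 h after DMBA (3), 12 h after TCDD (3) and with oil (3). The labels give each array as 9 samples pooled and do not say how mice were shared between pools, so p-values measure the spread between these arrays only.

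MHC class II molecules are pairs of an alpha and a beta chain that show peptides from endocytosed protein to CD4 T cells. Cd74 holds new pairs together and blocks their groove until it is cleaved, the DM pair (H2-DMa with H2-DMb1 or H2-DMb2) exchanges its remnant for peptide, and the DO pair (H2-Oa with H2-Ob) restrains DM. Ciita switches the whole set on by joining the factors bound to the X and Y boxes of the class II promoters. In marrow the set is used by B lineage cells, dendritic cells and macrophages. BP, DMBA and TCDD are ligands of the aryl hydrocarbon receptor, and Cyp1a1 and Cyp1b1 are enzymes that metabolise BP and DMBA.

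Of the 7 members with a promoter window, 4 held the letters of the box pair that Ciita acts through. Windows of 300 bases around the starts of the genes came from RefSeq (GRCm38.p6). The letters AGNAAC (within the X box) followed on one strand by GATTGG (the Y box) after a gap of 15 to 40 bases were found in H2-Eb1, H2-DMb1, H2-Oa and H2-Ob, and in 0.469% of 32851 windows. Alone, AGNAAC was in 48.1% of windows and GATTGG in 16.1%, counting both strands. Within a pair the 2 matches do not overlap. The letters were chosen after the sequences had been read, and a match is a description. The stretches that hold the pair are given on the plus strand, with the motif letters in capitals. They lie at chr17:34305767-34305820 (H2-Eb1), chr17:34153088-34153142 (H2-DMb1), chr17:34092294-34092348 (H2-Oa) and chr17:34238809-34238860 (H2-Ob).
H2-Eb1: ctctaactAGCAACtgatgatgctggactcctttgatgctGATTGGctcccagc
H2-DMb1: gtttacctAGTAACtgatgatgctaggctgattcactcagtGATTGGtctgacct
H2-Oa: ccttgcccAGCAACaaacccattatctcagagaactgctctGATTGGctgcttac
H2-Ob: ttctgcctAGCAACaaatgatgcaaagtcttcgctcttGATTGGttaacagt
The bases between the motifs number 26 in H2-Eb1, 27 in H2-DMb1 and H2-Oa, and 24 in H2-Ob. The windows of H2-Aa and H2-DMb2 held the Y letters and no X match, and of H2-DMa 1 window held both and no pair at this spacing. In GRCm38.p6 the 8 H2 genes lie on chromosome 17 between H2-Oa (34092379-34095234) and H2-Eb1 (34305867-34316674). Ciita is on chromosome 16 (10480014-10531064).

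The oil-treated WT array labelled replicate 1 stood apart from the other two, which bears on every comparison with WT oil. Values are log2 of sample over reference (Cy3 over Cy5) unless another scale is named. The mean over the 10 genes was 1.63 on that array, against 0.09 on both other WT oil arrays. Its sample channel was not high: the mean Cy3 level, as log2 above the array's 75th percentile, was 1.38, beside 1.24 and 1.48. Its reference channel was low, with a mean Cy5 level of -0.92, beside 1.16 and 1.40. The B lineage markers (16 genes, among them Cd79a and Ebf1) did the same: their mean ratio was 2.90 there, against 0.38 and 0.28, with mean Cy5 levels of -2.00, 1.60 and 1.57. Markers of other marrow cells were also low in that channel, with a mean Cy5 level of 1.46 for 10 neutrophil markers, beside 5.96 and 5.85, and 0.30 for 13 erythroid markers, beside 4.19 and 4.41. Liver markers (11 genes) were high in it, at a mean Cy5 level of 6.48, against -5.62 to -1.95 on the other 23 arrays, and at 2.66 in Cy3, against -5.34 to -2.11. The reference channel of this array thus goes against its label as pooled marrow, and whether the scanner file belongs to the labelled sample was not settled. The array was alone on its slide. Comparisons with WT oil are given with all 3 oil arrays, and beside them without the array labelled replicate 1.

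**Figure D1:**
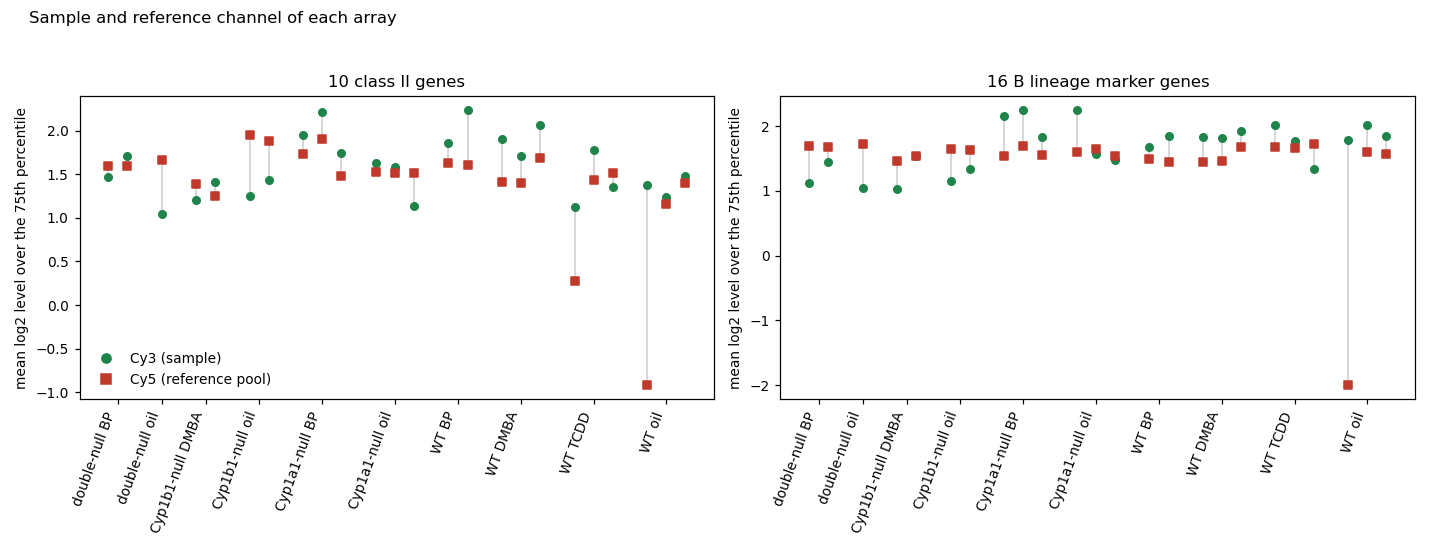
Mean Cy3 (sample) and Cy5 (reference) level of the 10 class II genes on each of the 24 arrays, as log2 above the array's 75th percentile. The reference level is lowest on WT oil 1, at -0.92, and the 0.28 of WT TCDD 1 is lowered by a single Cd74 spot at -7.13.

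In Cyp1b1-null marrow without a ligand, 4 of the 10 class II genes fell relative to the reference, against WT marrow: H2-Aa, H2-Ab1, H2-DMa and H2-DMb2. The 10 differences ran from -1.50 (H2-Aa) to -0.36 (H2-DMb1) with a median of -1.00, beside 0.06 over all genes. With WT oil replicate 1 left out, they ran from -0.80 to 0.40 with a median of -0.48, and H2-DMb1 was positive. In this comparison 15.4% of all genes were called in either direction and 6.78% as lower. The same 4 genes were called without WT oil replicate 1, in a fit that called 29.6% of all genes. In whole marrow, fewer cells of a type and less RNA per cell cannot be told apart. The 2 Cyp1b1-null oil arrays also lay on 1 slide with no oil-treated WT array, so slide and genotype cannot be told apart here.

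H2-Aa, the alpha chain of the A molecule, had ratios of -0.83 and -0.70 in Cyp1b1-null oil, against 2.13, 0.09 and -0.02 in WT oil. The groups did not overlap, and the difference was -1.50 ± 0.45 (SE; limma adjusted p = 0.0356), or 2.82-fold lower. Leaving out WT oil replicate 1 gave -0.80 (adjusted p = 0.0275). H2-Ab1, the beta chain of the same molecule, had -0.64 and -0.41 in Cyp1b1-null oil, against 1.93, 0.02 and 0.13 in WT oil. Its difference was -1.22 ± 0.39 (adjusted p = 0.0446) and -0.60 (adjusted p = 0.037) without that array. The other 3 probes of H2-Ab1 were called as well, with differences of -1.36, -1.84 and -1.68. The other probe of H2-Aa had -1.05 and was not called (adjusted p = 0.125). In this comparison 8 of the 10 genes had no overlap between groups. The share of all genes without overlap was not counted here or in any comparison, so lack of overlap is a description throughout.

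Of the peptide editors, H2-DMa and H2-DMb2 passed the test. H2-DMa had -1.00 and -0.77 in Cyp1b1-null oil, against 0.99, -0.28 and -0.14 in WT oil, a difference of -1.07 ± 0.28 (adjusted p = 0.0193). H2-DMb2 had -0.35 and -0.21 in Cyp1b1-null oil, against 1.85, 0.31 and 0.50 in WT oil, a difference of -1.16 ± 0.35 (adjusted p = 0.0347). Every Cyp1b1-null array was below every WT array for both genes, and without WT oil replicate 1 the differences were -0.67 (adjusted p = 0.0128) and -0.68 (adjusted p = 0.0452). The brightest probe of H2-DMb1, the other DM beta chain, did not go with them: it had 0.24 and 0.44 in Cyp1b1-null oil, against 2.20, -0.06 and -0.04 in WT oil. Its difference was -0.36 (adjusted p = 0.62), and it was 0.40 (adjusted p = 0.132) without WT oil replicate 1. The other probe of H2-DMb1, which is named H2-DMb2 on some arrays, had -0.57 and was not called (limma adjusted p = 0.264). For the DO pair, H2-Oa had -1.20 (adjusted p = 0.123) and H2-Ob -0.77 (adjusted p = 0.0803), which became -0.31 and -0.43 without that array.

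Among the remaining genes, Cd74 had -0.93 (adjusted p = 0.08), H2-Eb1, the beta chain of the E molecule, -0.64 (adjusted p = 0.238), and Ciita -0.49 (adjusted p = 0.235). With WT oil replicate 1 left out they had -0.50 (Cd74), -0.16 (H2-Eb1) and -0.45 (Ciita), none of them called. Ciita ratios of -0.13 and 0.10 in Cyp1b1-null oil lay within the 0.55, 0.86 and 0.02 of WT oil in part.

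The 4 calls did not hold in the sample channel by itself. On the Cy3 scale alone, on which the median of all genes was -0.25 in this comparison, H2-Aa differed by 0.10, H2-Ab1 by -0.43, H2-DMa by 0.01 and H2-DMb2 by 0.31. On that scale 6 of the 10 differences were positive, and none was called, beside 7.64% of all genes. The mean Cy3 level of the 10 genes was 1.25 and 1.44 on the Cyp1b1-null oil arrays, against 1.38, 1.24 and 1.48 on the WT oil arrays, which overlapped. The mean Cy5 level was 1.95 and 1.88 on the Cyp1b1-null oil arrays and at most 1.40 on the WT oil arrays, so the reference channel was brighter where the ratio was lower. With slide as a random block the adjusted p-values of the 4 genes were 0.337 to 0.523. The part of the reference channel in these differences was not tested further. Leaving out either Cyp1b1-null oil array ended all 4 calls, and leaving out WT oil replicate 2 gave 7. The share of all genes called in these fits was not counted. On the Cy3 scale the median of all genes moved between -0.27 and 0.51 over the 13 comparisons, and Cy3 differences are to be read against that shift.

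**Figure D2:**
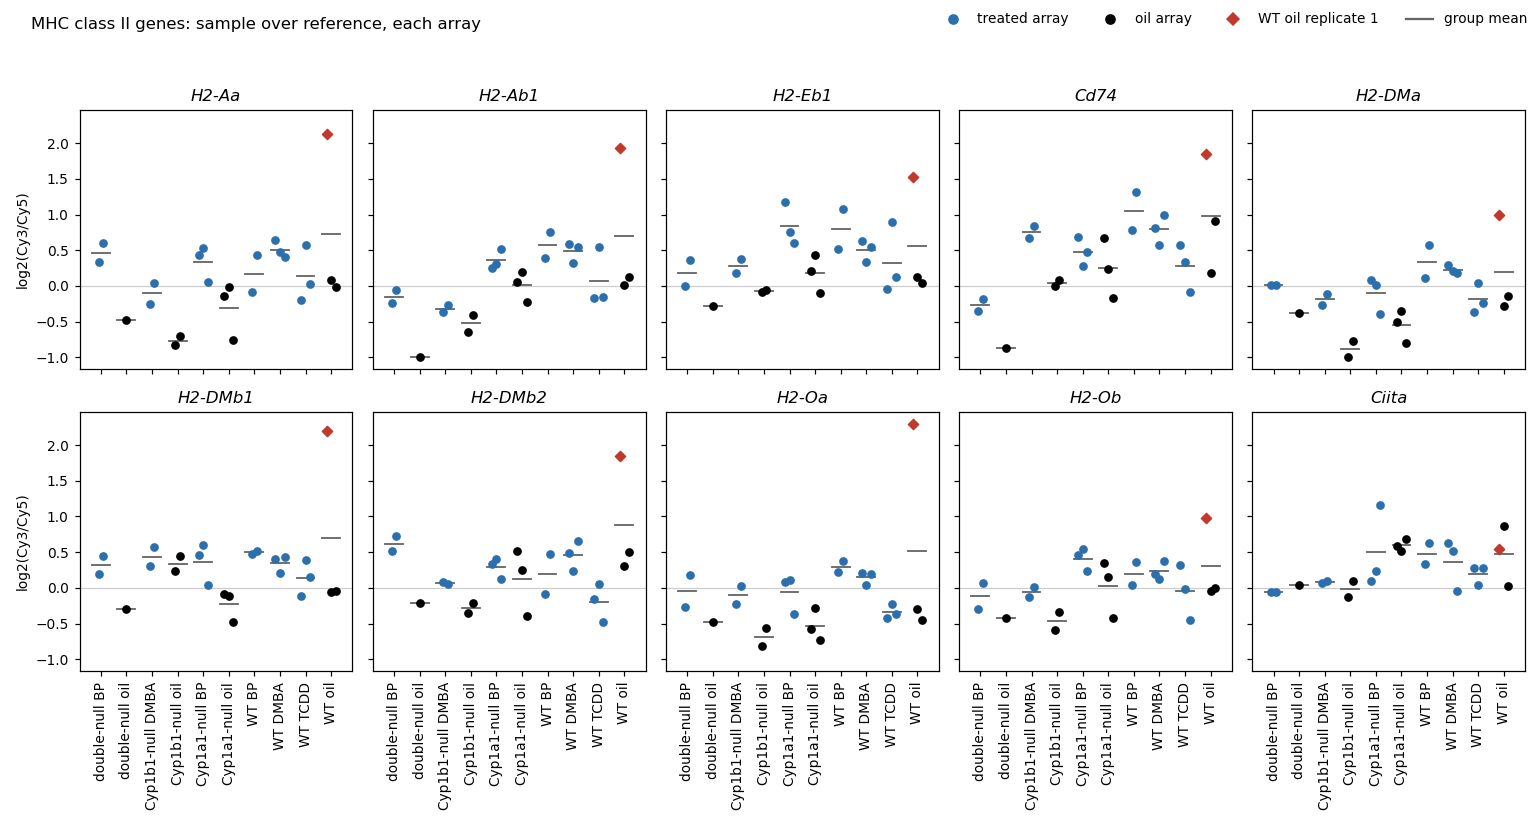
Log2 ratio of sample to reference for each of the 10 class II genes on every array, by group, with the group mean. WT oil replicate 1 is the high point of most genes (2.30 for H2-Oa), and the Cyp1b1-null oil arrays are low for H2-Aa (-0.83 and -0.70) and H2-DMa (-1.00 and -0.77).

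Loss of both enzymes was read from 1 oil-treated double-null array, whose spread was taken to be like that of the other groups. All 10 differences from WT oil were negative, with a median of -1.00 beside 0.04 over all genes, and -0.40 without WT oil replicate 1, and 1 gene was called, in a comparison that called 1.54% of all genes and 0.858% as lower. That gene was Cd74, with a ratio of -0.87 in double-null oil, against 1.84, 0.18 and 0.91 in WT oil. The difference was -1.84 ± 0.44 (limma adjusted p = 0.0476), or 3.58-fold lower. Leaving out WT oil replicate 1 gave -1.41 (adjusted p = 0.0228), and H2-Ab1, at -0.99 in double-null oil, was then called too (-1.07, adjusted p = 0.0212), in a fit that called 6% of all genes.

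Cd74 also lost its call on the Cy3 scale. Its Cy3 level was 4.18 in double-null oil, against 4.25, 3.92 and 4.61 in WT oil, a difference of -0.08, where that scale called 0.396% of all genes. Its Cy5 level was 5.27 in double-null oil and 5.08 and 5.13 in double-null BP, against 2.46 to 4.71 on the other arrays, leaving out WT TCDD 1. All 3 double-null arrays were on 1 slide that held no other genotype.

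Loss of Cyp1a1 changed no class II gene by the test, beside 3.58% of all genes called. The median of the 10 differences was -0.74, and 6 had an unadjusted limma p under 0.05, but without WT oil replicate 1 the median was -0.17, with no call beside 7.5% of all genes. H2-DMa came nearest to a call, with ratios of -0.50, -0.35 and -0.80 in Cyp1a1-null oil, against 0.99, -0.28 and -0.14 in WT oil. Its groups did not overlap, and its difference was -0.74 ± 0.25 (adjusted p = 0.0951), or -0.34 (adjusted p = 0.227) without WT oil replicate 1. Without WT oil replicate 2 there were 6 calls and without replicate 3 there were 4. In these fits the array labelled replicate 1 weighs more in the WT oil mean. The share of all genes called in them was not counted, so these counts have no background. Ciita was the exception in sign, at 0.12 (adjusted p = 0.801).

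BP was tested in 3 genotypes, and no class II gene was called in any of them. In Cyp1a1-null marrow at 12 h, 9 of the 10 differences from oil were positive with a median of 0.42, beside 0.04 over all genes, and 0.0327% of all genes were called. None had an unadjusted limma p under 0.05. H2-Eb1 had 1.18, 0.75 and 0.60 in Cyp1a1-null BP, against 0.21, 0.44 and -0.10 in Cyp1a1-null oil, a difference of 0.66 ± 0.32 (adjusted p = 0.346). H2-Aa had 0.43, 0.53 and 0.05 in Cyp1a1-null BP, against -0.14, -0.02 and -0.76 in Cyp1a1-null oil, a difference of 0.64 ± 0.41 (adjusted p = 0.491). BP arrays were above oil arrays for both genes without overlap, as were 4 of the 10 genes in all, and the share over all genes was not counted. Within the slide that held both groups (1 BP array and 3 oil arrays), the differences were 0.42 for H2-Eb1 and 0.35 for H2-Aa and ranged from 0.00 (H2-DMb2) to 0.56 (Ciita) over the 10 genes, with none called, beside 0.0164% of all genes.

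In double-null marrow at 12 h, where all 3 arrays shared a slide, 9 of 10 differences were positive with a median of 0.53, beside 0.00 over all genes and 0.282% of genes called. H2-Aa had 0.33 and 0.60 in double-null BP, against -0.47 in double-null oil, a difference of 0.94 ± 0.61. H2-Ab1 had -0.24 and -0.06 in double-null BP, against -0.99 in double-null oil, a difference of 0.85 ± 0.52. H2-DMb2 had 0.52 and 0.72 in double-null BP, against -0.21 in double-null oil, a difference of 0.83 ± 0.47. These were the 3 largest differences, and the smallest adjusted limma p of the 10 genes was 0.969, with none under 0.05 unadjusted. Ciita was the gene below 0, at -0.10.

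In WT marrow at 6 h, the sign of the BP difference turned on WT oil replicate 1. With it, 4 of 10 differences were positive and the median was -0.11, beside 0.698% of all genes called, and none of the 10 had an unadjusted limma p under 0.05. Without it, 9 were positive with a median of 0.50, beside 0.02 over all genes, and none was called, beside 3.76% of all genes. H2-Oa had 0.22 and 0.37 in WT BP, against 2.30, -0.29 and -0.45 in WT oil, and its difference was -0.23 (adjusted p = 0.864) with that array and 0.66 (adjusted p = 0.0526) without it. Cd74 had 0.79 and 1.32 in WT BP, against 1.84, 0.18 and 0.91 in WT oil, with differences of 0.08 and 0.51. The Cy3 scale also gave 9 positive differences, from -0.33 (Ciita) to 1.35 (H2-Eb1), where the median of all genes was -0.27, and called none, beside 0.29% of all genes. The WT BP arrays were alone on their slide.

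After BP, the double-null and Cyp1a1-null arrays differed in no class II gene by the test, beside 0.163% of all genes called. Cd74 came nearest, with -0.35 and -0.18 in double-null BP, against 0.68, 0.28 and 0.48 in Cyp1a1-null BP. Its groups did not overlap, and its difference was -0.75 ± 0.35 (limma adjusted p = 0.424). The other 9 genes differed by -0.66 (H2-Eb1) to 0.33 (H2-DMb2).

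DMBA changed no class II gene by the test in WT marrow, where 0% of all genes were called. The 10 differences ranged from -0.43 (H2-DMb2) to 0.04 (H2-DMa) with a median of -0.20, and none had an unadjusted limma p under 0.05. The median was 0.41 without WT oil replicate 1, and 9 were positive, again with no call beside 0% of all genes. The 3 DMBA arrays lay close together: H2-Aa had 0.64, 0.48 and 0.40 in WT DMBA, against 2.13, 0.09 and -0.02 in WT oil, and H2-Ab1 had 0.59, 0.32 and 0.54 in WT DMBA, against 1.93, 0.02 and 0.13 in WT oil. One slide held 2 DMBA arrays and WT oil replicate 2, and within it H2-DMa was higher by 0.53 (adjusted p = 0.000193), Cd74 by 0.51, H2-Aa by 0.47 and H2-Ab1 by 0.44, and Ciita was lower, at -0.28. That fit called 8 of the 10 genes and 29.5% of all genes, and its spread came from the 2 DMBA arrays alone, so it holds no estimate of the spread of oil arrays.

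In Cyp1b1-null marrow, all 10 differences after DMBA were positive, from 0.09 (H2-DMb1) to 0.71 (Cd74) with a median of 0.38, beside -0.01 over all genes, and none was called, beside 0.0245% of all genes. One had an unadjusted limma p under 0.05. That was H2-DMa, with -0.26 and -0.11 in Cyp1b1-null DMBA, against -1.00 and -0.77 in Cyp1b1-null oil, a difference of 0.70 ± 0.31 (adjusted p = 0.296). Cd74 had 0.67 and 0.84 in Cyp1b1-null DMBA, against 0.00 and 0.09 in Cyp1b1-null oil, a difference of 0.71 ± 0.38 (adjusted p = 0.439). Neither gene overlapped between groups. With WT oil replicate 1 left out of the shared spread, H2-DMa was called (adjusted p = 0.0316), beside 7.42% of all genes. A fit of these 4 arrays alone called 6 of the 10 genes, beside 34.4% of all genes. On the Cy3 scale the differences of the 10 genes had a median of -0.06, where that of all genes was 0.31. The DMBA and oil arrays lay on different slides, and the slide of the oil arrays also held Cyp1a1-null BP arrays.

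The DMBA response did not differ between genotypes by the test. The response in Cyp1b1-null marrow minus that in WT marrow was positive for all 10 genes, from 0.20 (Ciita) to 0.95 (H2-Oa), with limma adjusted p-values of 0.48 to 0.842 and none under 0.05 unadjusted, beside 0.00817% of all genes called. That range became -0.31 to 0.46 without WT oil replicate 1. After DMBA itself, Cyp1b1-null arrays were compared with WT arrays, and this comparison does not use WT oil. H2-Ab1 had -0.37 and -0.27 in Cyp1b1-null DMBA, against 0.59, 0.32 and 0.54 in WT DMBA. All Cyp1b1-null arrays were below all WT arrays, and the difference was -0.80 ± 0.39 (adjusted p = 1), or adjusted p = 0.0394 with WT oil replicate 1 left out of the shared spread. The fit of all 24 arrays called 0.102% of all genes and that without WT oil replicate 1 called 1.56%. H2-Aa differed by -0.61 and Cd74 by -0.04. On the Cy3 scale, where the median of all genes was 0.40, all 10 differences were negative, and H2-Oa was called (-1.19, adjusted p = 0.00418), beside 20.7% of all genes. Its Cy3 levels were 0.14 and 0.40 in Cyp1b1-null DMBA, against 1.58, 1.34 and 1.46 in WT DMBA, while its Cy5 levels were 0.75 and 0.63 in Cyp1b1-null DMBA, against 1.38, 1.30 and 1.26 in WT DMBA.

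**Figure D3:**
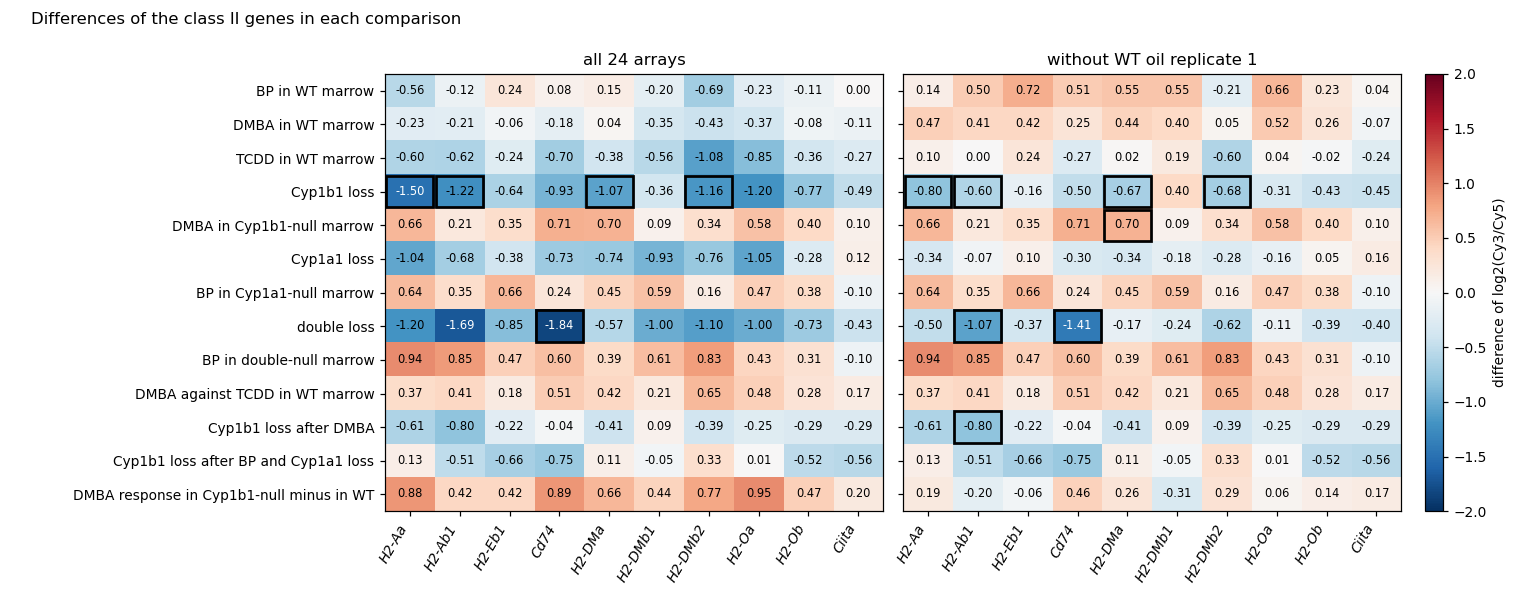
Difference in log2 ratio of each of the 10 class II genes (columns) in each of the 13 comparisons (rows), from all 24 arrays on the left and without WT oil replicate 1 on the right, with genes called at an adjusted p under 0.05 boxed. On the left the boxes are at H2-Aa, H2-Ab1, H2-DMa and H2-DMb2 for Cyp1b1 loss and at Cd74 (-1.84) for double loss.

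TCDD gave 10 negative differences in WT marrow, from -1.08 (H2-DMb2) to -0.24 (H2-Eb1) with a median of -0.58, and none was called, beside 2.09% of all genes. At an unadjusted limma p under 0.05 there were 2, H2-DMb2 and Cd74. H2-DMb2 had -0.16, 0.05 and -0.48 in WT TCDD, against 1.85, 0.31 and 0.50 in WT oil, without overlap, and its difference was -1.08 ± 0.31 (adjusted p = 0.0747). When WT oil replicate 1 was left out it was -0.60 (adjusted p = 0.108), the median of the 10 genes was 0.01, 5 were positive and none was called, beside 6.11% of all genes. Leaving out WT oil replicate 2 gave 2 calls and leaving out replicate 3 gave 1, in fits whose share of all genes called was not counted. The 3 TCDD arrays, which shared a slide of their own, differed among themselves: H2-Eb1 had -0.04, 0.89 and 0.13, and H2-Aa had -0.20, 0.57 and 0.03. Cyp1a1, a gene that the aryl hydrocarbon receptor induces, had ratios of 0.18, 0.15 and 1.55 on these arrays and was not well above background on WT TCDD 1. Between the ligands, DMBA means were above TCDD means for all 10 genes, by 0.17 (Ciita) to 0.65 (H2-DMb2). None was called or had an unadjusted limma p under 0.05, beside 0.592% of all genes called. The largest, H2-DMb2, had 0.49, 0.24 and 0.65 in WT DMBA, against -0.16, 0.05 and -0.48 in WT TCDD, and its 95% interval ran from -0.01 to 1.31.

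The reading of Cd74 after TCDD depended on how 1 spot's background was taken. On WT TCDD 1 the Cy5 local background had a mean of 12200 but a median of 52 intensity units, and the scanner software marked it as uneven. Its processed Cy5 signal was 3.66, beside a mean Cy5 signal of 11200 before subtraction, which made the processed log2 ratio 11.13, against 0.34 and -0.22 on the other TCDD arrays. With the median background used here, Cd74 had 0.58, 0.34 and -0.09 in WT TCDD, against 1.84, 0.18 and 0.91 in WT oil, a difference of -0.70 ± 0.31 (limma adjusted p = 0.215), or -0.27 (adjusted p = 0.54) without WT oil replicate 1. From the processed signals the difference was 2.81. The authors' deposited table gives 3.23 for Cd74 in this comparison.

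Across the 10 groups, the oil-treated null marrows held the lowest mean of 9 members. H2-Aa, H2-DMa, H2-DMb2, H2-Oa and H2-Ob had it in Cyp1b1-null oil, and H2-Ab1, H2-Eb1, Cd74 and H2-DMb1 in double-null oil, which is 1 array. These are ratios. On the Cy3 scale Cyp1b1-null oil was lowest for none of the members just named for it. H2-DMb2 had -0.20 there against -1.26 in double-null oil, and H2-Oa 0.80 against 0.27 in Cyp1b1-null DMBA. Double-null oil kept the lowest Cy3 mean for H2-Ab1 (3.91) and H2-Eb1 (2.17), and not for Cd74 or H2-DMb1. That 1 array was also lowest on the Cy3 scale for H2-Aa (2.00), H2-DMa (-0.46), H2-DMb2 (-1.26) and H2-Ob (-2.39). The ratio means that follow are given with the SD over the arrays of a group, from low to high. The highest mean of 5 members was in WT oil, where replicate 1 set it. With that array left out, WT oil was highest for none. Its mean was then 0.03 for H2-Aa, 0.08 for H2-Ab1 and for H2-Eb1, 0.55 for Cd74, -0.21 for H2-DMa, -0.05 for H2-DMb1, 0.40 for H2-DMb2, -0.37 for H2-Oa, -0.03 for H2-Ob and 0.44 for Ciita. This placed it just below WT TCDD for H2-Aa, H2-DMa and H2-Oa and just above it for H2-Ab1. The orders below include all 3 WT oil arrays.

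For H2-Ab1 the order began with double-null oil (-0.99), Cyp1b1-null oil (-0.53 ± 0.16), Cyp1b1-null DMBA (-0.32 ± 0.07), double-null BP (-0.15 ± 0.12) and Cyp1a1-null oil (0.01 ± 0.21). It went on with WT TCDD (0.07 ± 0.41), Cyp1a1-null BP (0.36 ± 0.14), WT DMBA (0.48 ± 0.15), WT BP (0.57 ± 0.26) and WT oil (0.69 ± 1.07). The arrays of the first 4 groups did not overlap between neighbours, and those of the later neighbours did. For its partner H2-Aa, the lower end of the order held Cyp1b1-null oil (-0.76 ± 0.09), double-null oil (-0.47), Cyp1a1-null oil (-0.30 ± 0.40), Cyp1b1-null DMBA (-0.11 ± 0.21) and WT TCDD (0.13 ± 0.39). Above them were WT BP (0.17 ± 0.37), Cyp1a1-null BP (0.34 ± 0.25), double-null BP (0.47 ± 0.19), WT DMBA (0.51 ± 0.12) and WT oil (0.73 ± 1.21). Of its 9 neighbouring pairs, 1 did not overlap, that of Cyp1b1-null oil and double-null oil.

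H2-Eb1 ran from double-null oil (-0.28) and Cyp1b1-null oil (-0.07 ± 0.03) through Cyp1a1-null oil (0.18 ± 0.27), double-null BP (0.18 ± 0.26), Cyp1b1-null DMBA (0.28 ± 0.15) and WT TCDD (0.32 ± 0.49). WT DMBA (0.50 ± 0.15), WT oil (0.56 ± 0.83), WT BP (0.80 ± 0.39) and Cyp1a1-null BP (0.84 ± 0.30) followed, and all neighbours but the first pair overlapped. Cd74 ran from double-null oil (-0.87) and double-null BP (-0.26 ± 0.13) through Cyp1b1-null oil (0.04 ± 0.06), Cyp1a1-null oil (0.25 ± 0.42) and WT TCDD (0.28 ± 0.34). Then came Cyp1a1-null BP (0.48 ± 0.20), Cyp1b1-null DMBA (0.75 ± 0.12), WT DMBA (0.79 ± 0.21), WT oil (0.98 ± 0.83) and WT BP (1.06 ± 0.38). For Cd74 the double-null groups overlapped neither with each other nor with Cyp1b1-null oil, and all later neighbours overlapped.

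Of the DM chains, H2-DMa ran from Cyp1b1-null oil (-0.88 ± 0.16) through Cyp1a1-null oil (-0.55 ± 0.23), double-null oil (-0.38), WT TCDD (-0.19 ± 0.21), Cyp1b1-null DMBA (-0.18 ± 0.11) and Cyp1a1-null BP (-0.10 ± 0.25). Its upper end held double-null BP (0.01 ± 0.01), WT oil (0.19 ± 0.70), WT DMBA (0.23 ± 0.06) and WT BP (0.34 ± 0.32), and its neighbours overlapped except double-null oil and WT TCDD. H2-DMb2 had -0.28 ± 0.10 in Cyp1b1-null oil, -0.21 in double-null oil, -0.19 ± 0.27 in WT TCDD, 0.07 ± 0.01 in Cyp1b1-null DMBA and 0.13 ± 0.47 in Cyp1a1-null oil. It had 0.19 ± 0.39 in WT BP, 0.29 ± 0.14 in Cyp1a1-null BP, 0.46 ± 0.21 in WT DMBA, 0.62 ± 0.14 in double-null BP and 0.89 ± 0.84 in WT oil, and its only neighbours without overlap were WT TCDD and Cyp1b1-null DMBA. In H2-DMb1 no neighbouring groups were apart: its means lay between -0.30 in double-null oil and 0.50 ± 0.02 in WT BP in all groups but WT oil (0.70 ± 1.30).

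Of the DO chains, H2-Oa ran from Cyp1b1-null oil (-0.68 ± 0.17) through Cyp1a1-null oil (-0.53 ± 0.23), double-null oil (-0.48), WT TCDD (-0.34 ± 0.10), Cyp1b1-null DMBA (-0.10 ± 0.17) and Cyp1a1-null BP (-0.06 ± 0.26). It ended with double-null BP (-0.04 ± 0.32), WT DMBA (0.15 ± 0.09), WT BP (0.29 ± 0.11) and WT oil (0.52 ± 1.54). Arrays did not overlap between double-null oil and WT TCDD or between WT DMBA and WT BP, and did between its other neighbours. H2-Ob had means between -0.46 ± 0.19 in Cyp1b1-null oil and 0.41 ± 0.16 in Cyp1a1-null BP, and the neighbours double-null oil (-0.42) and double-null BP (-0.11 ± 0.26) were its only pair without overlap. Ciita departed from the others: its lowest mean was in double-null BP (-0.06) and its highest in Cyp1a1-null oil (0.60 ± 0.09), with 0.50 ± 0.58 in Cyp1a1-null BP and 0.48 ± 0.42 in WT oil. Its 1 pair of neighbours without overlap was double-null oil (0.04) and Cyp1b1-null DMBA (0.08 ± 0.02).

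Ratios of the members moved together across arrays. Over the 45 pairs of members and the 24 arrays, Pearson's r had a median of 0.74 and ran from -0.07 to 0.91. The median was 0.59 without WT oil replicate 1, and on the Cy3 scale it was 0.64. These arrays share one reference and several share a slide, so r is a description. The genes most like the mean of H2-Aa, H2-Ab1, H2-Eb1 and Cd74 were Hmces (0.92), Cd2 (0.92), Ccdc134 (0.91), Jakmip1 (0.91), Ccr7 (0.90), Fcmr (0.90), Map3k14 (0.90) and Ankrd10 (0.90), over 24 arrays. Their r was 0.81 to 0.85 without WT oil replicate 1 and, on the Cy3 scale, 0.41 (Jakmip1) to 0.84 (Ccr7). The ranking leaned on that array: Il6st had an r of -0.02 with it and 0.86 without it, the highest of 24219 genes, and 0.89 on the Cy3 scale, again the highest. Ciita had an r of 0.28 with the same mean, against 0.88 for H2-Oa and 0.87 for H2-DMa.

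**Figure D4:**
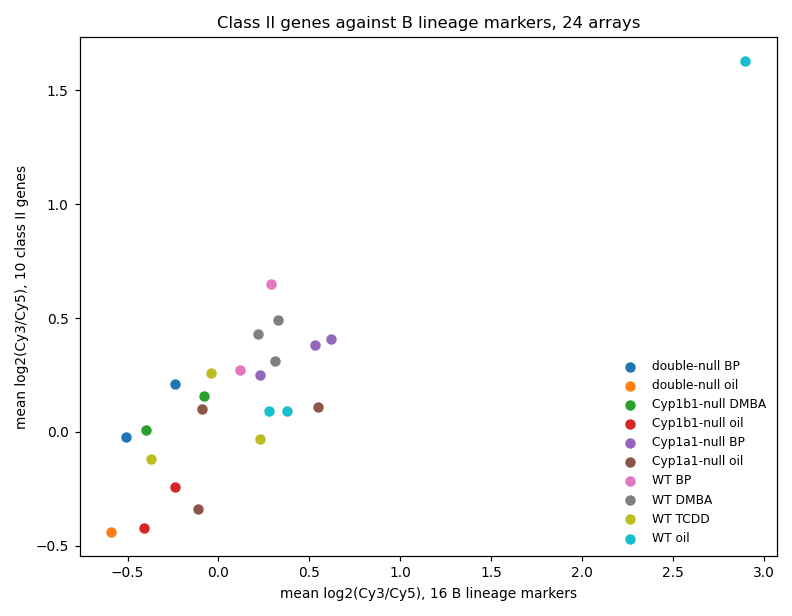
Mean log2 ratio of the 10 class II genes against that of the 16 B lineage markers, 1 point per array. WT oil replicate 1 lies far from the rest, at 1.63 and 2.90. The arrays with lower markers include those of Cyp1b1-null and double-null oil, and those of double-null BP, whose class II means were -0.02 and 0.21.

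Among markers of class II bearing cells, those of the B lineage fell in the Cyp1b1-null comparison, and dendritic and macrophage markers did not fall as a group there. In the comparison of Cyp1b1-null with WT oil, 8 of the 16 B lineage markers fell and none rose, with a median of -1.60, beside 15.4% of all genes called. Those named by the smallest adjusted p were Blk (-1.52), Ebf1 (-1.68), Fcrla (-3.74) and Spib (-2.40). Blk is a B cell kinase and Ebf1 and Spib are B lineage transcription factors. Without WT oil replicate 1, 7 fell and 2 rose with a median of -0.66, beside 29.6% of all genes called. On the Cy3 scale 6 fell, with a median of -0.90, beside 7.64% of all genes called. On that scale H2-Aa, H2-DMa and H2-DMb2 did not fall. The mean Cy3 level of the 16 markers was 1.15 and 1.33 in Cyp1b1-null oil, against 1.79, 2.02 and 1.84 in WT oil. In double-null oil it was 1.04. Low B lineage ratios did not always go with low class II ratios. The mean B lineage ratio was -0.32 in Cyp1b1-null oil, -0.24 in Cyp1b1-null DMBA and -0.38 in double-null BP. The mean of H2-Aa, H2-Ab1, H2-Eb1 and Cd74 in these groups was -0.33, 0.16 and 0.06. The part of the B lineage markers in the class II differences was not tested. Dendritic markers (10 tested) gave 2 called higher, Itgax and Xcr1, and 1 called lower, Siglech, in the Cyp1b1-null comparison, and monocyte and macrophage markers (13) gave 3 higher and 1 lower. In Cy3, 14 to 16 of the 16 B lineage, 12 to 13 of the 13 monocyte and macrophage, and 7 to 10 of the 10 dendritic markers were well above background on each array.

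Genes on the same pathway did not follow the class II chains as a group. Of 19 further class II pathway genes (proteases, ubiquitin ligases and the factors that bind the X and Y boxes), 2 rose and 1 fell in Cyp1b1-null oil against WT oil, with a median of 0.01, a share near the 15.4% of all genes called there. Ctsh, a lysosomal cathepsin, rose by 0.82 (adjusted p = 0.00589), and Ctsl, another, by 1.34 (adjusted p = 0.0451). Ifi30, a thiol reductase that opens disulphide bonds of antigens, fell by 1.33 (adjusted p = 0.0115). With WT oil replicate 1 left out, the differences were 0.59 for Ctsh, 0.64 for Ctsl and -0.88 for Ifi30, and on the Cy3 scale none of these 3 was called. None of the 19 was called in any other comparison with WT oil or between BP and oil. Among 13 class I presentation genes, Psmb8, an immunoproteasome subunit, fell by 0.93 (adjusted p = 0.0082), and Tap1, a peptide transporter subunit, fell by 0.62 (adjusted p = 0.018) in the Cyp1b1-null comparison, again a share near that of all genes. They had 0.36 (Psmb8) and -0.07 (Tap1) on the Cy3 scale and were not called. In Cyp1a1-null oil the class I heavy chains H2-K1 (0.97, adjusted p = 0.0119) and H2-D1 (1.13, adjusted p = 0.0141) rose and Psmb10 fell by 0.71 (adjusted p = 0.0164). That comparison called no class II gene and 3.58% of all genes. By Cy3 alone H2-D1 was called (0.82, adjusted p = 0.0255), and H2-K1 (-0.23, adjusted p = 0.612) and Psmb10 (-0.06, adjusted p = 0.911) were not. Closely related class I genes can share probe signal, so H2-K1 and H2-D1 are uncertain.

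Interferon gamma is the textbook inducer of Ciita. Of 13 interferon gamma responsive genes, 2 rose in WT marrow 6 h after BP, beside 0.698% of all genes called. These were Cxcl10, a chemokine, by 2.65 (adjusted p = 0.00287), and Gbp2, a guanylate-binding protein, by 1.25 (adjusted p = 0.0333). On the Cy3 scale Cxcl10 was called (2.82, adjusted p = 0.0221) and Gbp2 was not (0.71, adjusted p = 0.211). Ciita in the same comparison had 0.33 and 0.63 in WT BP, against 0.55, 0.86 and 0.02 in WT oil, a difference of 0.00. In the Cyp1b1-null comparison 4 of the 13 fell, where 6.78% of all genes were called as lower. Among them, Jak2, a kinase of the interferon gamma receptor, fell by 1.38, and Ifngr2, a chain of that receptor, by 0.84. Irf8, a transcription factor, fell by 1.75. With WT oil replicate 1 left out they had -0.97 (Jak2), -0.54 (Ifngr2, adjusted p = 0.0501) and -0.88 (Irf8), and on the Cy3 scale none of these 3 was called.

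H2-Ea, the alpha partner of H2-Eb1, is not made in C57BL/6 mice, whose H2-Ea promoter is deleted. Its probe was well above background in Cy3 on 5 of 24 arrays, and that of H2-Eb2, a further beta chain, on 16. The 5 arrays for H2-Ea were all 3 double-null arrays, 1 Cyp1a1-null oil array and 1 Cyp1a1-null BP array, on slides without WT samples. On each of them the H2-Ea probe was also well above background in Cy5, the WT reference. As a check of genotype, the Cyp1a1 probe was not well above background on any of the 9 Cyp1a1-null and double-null arrays. It was also not so on the Cyp1b1-null oil arrays or on WT oil replicates 2 and 3. Oil arrays therefore do not check the Cyp1a1 genotype, and only the null arrays after BP bear on it. It was above background on all WT BP arrays, with ratios of 1.71 and 1.94, and on all WT DMBA arrays, and on 2 of the 3 WT TCDD arrays. The Cyp1b1 probe was well above background on all arrays of Cyp1b1-null and double-null marrow, with ratios of 0.06 to 1.57, against -0.06 to 0.57 in WT oil. The labels do not place it inside or outside the deleted part of the gene, so it does not check the Cyp1b1 genotype.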

How the data were processed

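Each array compares marrow RNA (Cy3) with a common WT reference (Cy5), without dye swap. Per the file headers, the deposited intensity values came from Agilent Feature Extraction (9.1.3.1 on 20 arrays and 10.7.3.1 on 4), with spot means, median local background and flags. The authors' deposited table gives log2 differences for 9 comparisons, and limma is named in the submitters' processing notes. The other columns (spot flags and names) are as deposited. Here, intensities were corrected by normexp (offset 50) and normalised within arrays by loess (limma 3.58.1, R 4.3.3), leaving out control and uneven spots. Spots were averaged per probe. The brightest probe stood for a gene if Cy3 was well above background on at least 3 arrays. Probe names were updated through accessions and gene names in RefSeq. One limma model with a mean per group was fitted over 24 arrays and 24491 genes, and a gene was called at a Benjamini-Hochberg adjusted p under 0.05. The fit was tested on simulated data. Cy3 was well above background for 38.3 to 84.8% of probes per array, and the number of arrays limits the precision. For the related lists, at most the 4 called genes with the smallest adjusted p were named per comparison, and all 10 class II genes were, and 1 called gene of the interferon gamma list is not reported here. The genes and lists were chosen with earlier results of these data known. Same-numbered arrays of different groups correlated at -0.25 to 0.33, so numbers were not taken as pairs. Alternatives were other background corrections, filters and probe rules, Cy3 alone, slide as a block and leaving out arrays, and leaving WT oil replicate 1 out of comparisons without WT oil, or together with Cy3 alone, was added after seeing the data.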

Additional observations from a re-analysis of the deposited data

How the results depend on the processing

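Counts of called class II genes were recomputed under each alternative, with 200 within 1.5 times the count reported and 34 outside it. For Cyp1b1 loss (4 called), the count was 0 with Cy3 alone, with slide as a random block, with only the groups compared, and without WT oil replicate 1 together with Cy3 alone or the slide block, and leaving out single arrays gave 0 to 7. On Cy3 alone the differences of H2-Aa, H2-DMa and H2-DMb2 turned to 0.10, 0.01 and 0.31, and without WT oil replicate 1 those of H2-Aa and H2-DMb2 were 0.30 and 0.32. For double loss (1 called), it was 0 without background subtraction, with processed signals, Cy3 alone, a filter on 12 arrays, slide as a random block, only the groups compared, and without WT oil replicate 1 combined with processed signals, the slide block or Cy3 alone, and leaving out single arrays gave 1 to 2. For comparisons with 0 called, DMBA in WT marrow gave 8 within the shared slide, beside 29.5% of all genes. DMBA in Cyp1b1-null marrow gave 6 with only the groups compared, beside 34.4% of all genes. BP in WT marrow gave 1 on Cy3 alone without WT oil replicate 1. DMBA against TCDD gave 1 on Cy3 alone, with or without WT oil replicate 1, and 1 with only the groups compared. Cyp1b1 loss after DMBA gave 1 on Cy3 alone, beside 20.7% of all genes. It gave 1 with only the groups compared, and 3 on Cy3 alone without WT oil replicate 1. Leaving out single arrays gave 0 to 2 for TCDD, 0 to 6 for Cyp1a1 loss, 0 to 1 for DMBA in Cyp1b1-null marrow and 0 to 1 for Cyp1b1 loss after DMBA, and 0 in the other 7 comparisons. The cause of these changes was not tested. For fits that leave out a single array other than WT oil replicate 1, the share of all genes called was not counted. With the replicate number as a block, Cyp1b1 loss gave 5 calls and double loss 1, and the block moved no other count. Counts given without a share of all genes have no background and are not read as a result about the class II genes. Same-numbered arrays share only a number. In most comparisons slide and group cannot be told apart, and groups of 1 to 3 arrays limit what can be called.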

Other observations

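The authors' deposited table could be set against differences of the processed signals, array by array. Across probes, its differences for DMBA in Cyp1b1-null marrow and BP in Cyp1a1-null marrow correlated with these at r = 0.99 and 0.98, with a median gap of 0 on the log2 scale. For BP in double-null marrow r was 0.74, with a median gap of 0. For the 6 comparisons with WT oil, r was 0.39 to 0.81 with all 3 WT oil arrays and 0.65 to 0.95 without replicate 1, and the median gap was 0.41 to 0.59 with that array and 0.11 to 0.13 without it. Probes are not independent replicates, and these r values are a description.

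In the comparison of Cyp1b1-null with WT oil, the authors' deposited table gives -0.67 for H2-Aa, -0.77 for H2-Ab1, -0.92 for H2-DMa, -0.89 for H2-DMb2 and 0.27 for H2-DMb1. These are the brightest probes, and for the other probe of H2-DMb1 the authors' deposited table gives -0.27. For double-null against WT oil, the authors' deposited table gives -1.59 for Cd74 and -0.99 for H2-Ab1. For Ciita, the authors' deposited table gives -1.09 for Cyp1b1 loss and 1.59 for DMBA in Cyp1b1-null marrow, where the fit reported here gave -0.49 and 0.10.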
